A study of Mus musculus with 95 samples.

Results

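The genes described here are Vegfa and 9 genes of the islet capillary, namely Kdr, Flt1, Plvap, Tek, Tie1, Angpt2, Pecam1, Cdh5 and Emcn. They were chosen by gene symbol, and make up 10 of the 20638 genes in the deposited count table. Expression was measured by RNA-seq of poly(A) RNA from pancreatic islets, which hold the endocrine cells of the pancreas. The mice were of the strains that founded the Diversity Outbred stock and received a diet high in fat and sugar, labelled as 45% fat. The 95 libraries carry title numbers from 1 to 100, with 5 numbers missing. The labels do not tie a strain, sex or age to a library, hence no groups were formed, and values are given as lowest, median and highest over libraries and over runs of neighbouring numbers. The labels do not say that each library came from its own animal.

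Islets are crossed by a dense network of capillaries whose endothelium carries pores closed by thin diaphragms. Beta cells secrete VEGF-A, which binds receptors on the endothelial cells and is known to be needed for this network to form and to keep its pores. A separate ligand and receptor system, the angiopoietins with Tek (also called Tie2) and its partner Tie1, acts on the stability of vessels. Angpt2 is known as a context-dependent antagonist of Tek that endothelial cells release when vessels are remodelled.

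The sequences before the start sites of 4 members are shown, because Vegfa is the ligand and Kdr, Flt1 and Emcn were the capillary genes that passed a test of positive rank correlation with it. Each is the 250 bases before the RefSeq start nearest the gene's annotated 5′ end (GRCm38.p6), read 5′ to 3′ on the gene's own strand. Capitals mark matches, on either strand, to 4 motifs. These were the TATA box motif TATAAA, the GC box motif GGGCGG of the Sp1 family, the ETS factor motif AGGAAG and the cyclic AMP response motif TGACGTCA. A GC box match on the other strand appears as CCGCCC, and an ETS match on the other strand as CTTCCT. The matches do not overlap each other. The sequences lie at chr17:46032378-46032627 (minus strand) for Vegfa, chr5:75978456-75978705 (minus strand) for Kdr, chr5:147726012-147726261 (minus strand) for Flt1 and chr3:137340828-137341077 (plus strand) for Emcn.
Vegfa: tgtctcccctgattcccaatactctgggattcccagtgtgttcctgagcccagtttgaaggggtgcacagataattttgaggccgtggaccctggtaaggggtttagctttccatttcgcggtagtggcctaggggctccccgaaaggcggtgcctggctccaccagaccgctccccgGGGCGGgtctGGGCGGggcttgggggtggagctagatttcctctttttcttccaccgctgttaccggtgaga
Kdr: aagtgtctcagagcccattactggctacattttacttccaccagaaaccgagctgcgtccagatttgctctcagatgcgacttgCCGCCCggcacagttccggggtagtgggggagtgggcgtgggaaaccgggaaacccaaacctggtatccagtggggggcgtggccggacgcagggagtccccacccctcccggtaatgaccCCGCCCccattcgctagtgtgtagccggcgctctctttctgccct
Flt1: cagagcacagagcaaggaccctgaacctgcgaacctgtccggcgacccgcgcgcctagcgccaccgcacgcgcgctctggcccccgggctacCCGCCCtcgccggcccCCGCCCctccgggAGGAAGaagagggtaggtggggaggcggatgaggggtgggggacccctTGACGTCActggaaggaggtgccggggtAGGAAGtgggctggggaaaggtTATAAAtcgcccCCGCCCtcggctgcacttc
Emcn: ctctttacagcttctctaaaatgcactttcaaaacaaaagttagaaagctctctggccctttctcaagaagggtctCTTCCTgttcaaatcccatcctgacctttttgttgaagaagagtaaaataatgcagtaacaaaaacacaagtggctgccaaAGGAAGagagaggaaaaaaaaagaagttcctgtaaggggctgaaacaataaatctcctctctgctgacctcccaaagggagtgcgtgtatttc
The window of Flt1 held all 4 motifs, with 1 match to the TATA box, 3 to the GC box, 2 to the ETS motif and 1 to the cyclic AMP response motif. Those of Vegfa and Kdr held 2 GC box matches each and no other of the motifs searched, and that of Emcn held 2 ETS matches. Among 32851 RefSeq promoters of the same length, 12.4% held the TATA box, 32.7% the GC box, 29.5% the ETS motif and 1.55% the cyclic AMP response motif. The GC content was 59.2% for Vegfa, 61.6% for Kdr, 70.4% for Flt1 and 40.8% for Emcn, against a median of 52.4% over all promoters. These matches are letters in a window and describe no binding. RefSeq promoters were matched for 6 of the 10 members, including Tek and Tie1, which are not shown. A further RefSeq start of Vegfa, 7214 bases from its annotated 5′ end, had 1 GC box match and is also not shown.

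Most of libraries 91 to 100 stood apart in leukocyte transcripts, and the main results below are given with and without all 10. For the macrophage and for the lymphocyte markers, 7 of the 10 lay above all other libraries. Total counts ran from 16411809 to 34357253 with a median of 26552738 over all libraries. The summed level of 10 macrophage markers had a median of 370.6 CPM (counts relative to a scaled library total) in libraries 91 to 100 and 77.4 CPM in the other 85, with ranges of 90.9 to 1073 and 39.3 to 303 CPM. For 10 T and B lymphocyte markers the medians were 373 and 14.5 CPM, with ranges of 29.4 to 1607 and 5.42 to 132 CPM. The 16 acinar markers summed to medians of 124560 and 45485 CPM, with overlapping ranges of 24538 to 518950 and 1832 to 704070 CPM. The 8 hormone genes summed to medians of 148050 and 192690 CPM, with ranges of 69511 to 202030 and 126470 to 260390 CPM. None of the macrophage or lymphocyte markers was at 0 in all libraries. Endothelial identity was seen throughout: 14 of 15 further endothelial junction and surface genes had a median of 1 CPM or more, and their sum had medians of 424 and 405 CPM in the same sets of libraries.

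Vegfa (ENSMUSG00000023951, chromosome 17, 46016993 to 46032377, GRCm38) was the most abundant of the 10 genes. It had 151 CPM in library 97, a median of 514.8 CPM and 640.2 CPM in library 80. Libraries numbered up to 85 had 415 CPM or more, and the 4 lowest values belonged to libraries 97, 100, 99 and 98, at 151, 199, 223 and 293 CPM. Scaled by exon length, its median of 120 CPM per kb lay at the 98.7 percentile of kept genes. Its biological coefficient of variation, the spread between libraries beyond counting error, was 20.2% over all libraries and 10.2% without libraries 91 to 100. The low Vegfa values therefore lay almost wholly within one run of 10 numbers. Outside it, library 90 was lowest at 365.5 CPM.

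Both main VEGF receptors were well expressed. Kdr, the main signalling receptor (ENSMUSG00000062960, chromosome 5, 75932827 to 75978458), had 88.2 CPM in library 99, a median of 160.9 CPM and 281 CPM in library 46. Flt1 (ENSMUSG00000029648, chromosome 5, 147561604 to 147726011) binds VEGF-A tightly and is also made in a soluble form, which gene-level counts cannot tell from the receptor. Its values ran from 55.8 CPM in library 97 over a median of 140.3 CPM to 246 CPM in library 46. Per kb of exon, the medians were 17.8 CPM for Kdr and 10.4 CPM for Flt1. The highest values of both genes came from the same library, number 46, which also held the highest Plvap and Tie1.

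Tek, the angiopoietin receptor (ENSMUSG00000006386, chromosome 4, 94739289 to 94874976), was low and, of the 10 genes, had the widest coefficient of variation over all 95 libraries. It ran from 7.07 CPM in library 24 over a median of 14.8 CPM to 31.7 CPM in library 79, with a coefficient of 31.0%. Its partner receptor Tie1 (ENSMUSG00000033191, chromosome 4, 118471191 to 118490061) was the most even over all 95 libraries, at 16.8%. Tie1 had 24.1 CPM in library 5, a median of 39.1 CPM and 61.6 CPM in library 46. Angpt2 (ENSMUSG00000031465, chromosome 8, 18690263 to 18741562) was the lowest of the 10, from 3.79 CPM in library 69 over a median of 7.23 CPM to 15.1 CPM in library 86. Per kb, the medians were 7.96 CPM for Tie1, 3.13 CPM for Tek and 1.96 CPM for Angpt2.

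The genes of the capillary surface and of endothelial junctions differed more in level than in spread. Plvap, which forms the diaphragms of the pores (ENSMUSG00000034845, chromosome 8, 71497754 to 71511769), ran from 94.8 CPM in library 55 over a median of 173 CPM to 353 CPM in library 46. Per kb its median was 86.99 CPM, at the 98.2 percentile of kept genes and next to Vegfa among the members. Pecam1, an adhesion molecule of endothelial junctions that leukocytes and platelets also carry (ENSMUSG00000020717, chromosome 11, 106654217 to 106750628), had 33.3 CPM in library 5, a median of 57.6 CPM and 168 CPM in library 97. Cdh5, the cadherin of endothelial junctions (ENSMUSG00000031871, chromosome 8, 104101625 to 104144502), ran from 19.6 CPM in library 5 over a median of 36.5 CPM to 84.1 CPM in library 100. Emcn, a sialomucin of capillary and venous endothelium (ENSMUSG00000054690, chromosome 3, 137341067 to 137432185), had 16.5 CPM in library 97, a median of 42.7 CPM and 71.4 CPM in library 48. Per kb, the medians of Pecam1, Cdh5 and Emcn were 9.25, 8.69 and 7.89 CPM. All 10 genes passed the low-count filter, and 0 of 10 had a coefficient above 50%, against 24.2% of all kept genes. Plvap overlaps Gtpbp3, Angpt2 overlaps Mcph1 and Cdh5 overlaps Gm29682, each on the opposite strand, with 0 shared exon bases.

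**Figure D1:**
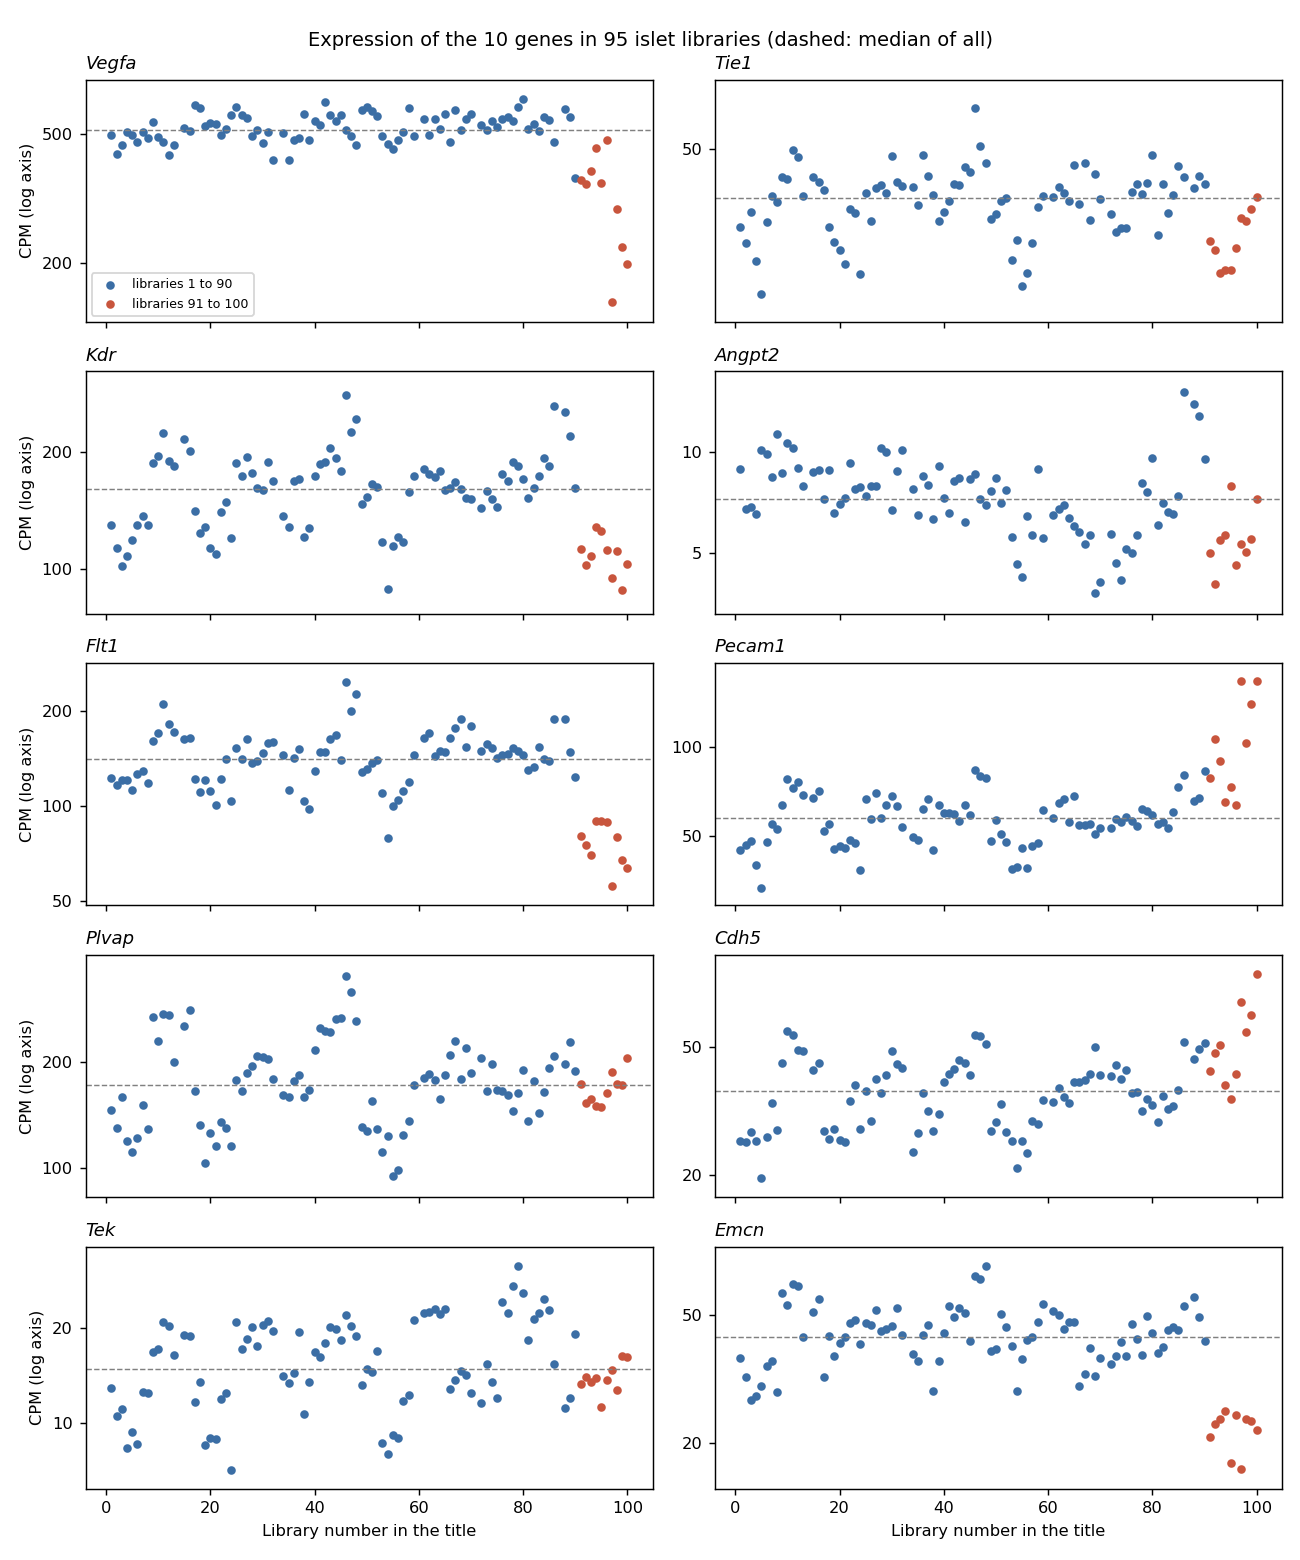
Expression of the 10 genes (CPM, log axis) against the number in each library's title, with 1 point per library, libraries 91 to 100 in red and the median of all 95 as a dashed line. Vegfa, Flt1 and Emcn lie low in libraries 91 to 100 and Pecam1 and Cdh5 high, and Kdr and Plvap rise and fall along the numbers.

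In libraries 91 to 100 the capillary genes did not shift together. Emcn was lowest there: its values of 16.5 to 25.2 CPM, with a median of 23.1 CPM, all lay below the 27.2 to 71.4 CPM of the other 85 libraries, whose median was 43.6 CPM. Of 15839 kept genes, 0.234% had all 10 of these libraries below all others and 0.12% had all 10 above. Flt1 had a median of 77.6 CPM against 145 CPM, with ranges of 55.8 to 89.6 and 79.3 to 246 CPM, and Kdr of 110 against 163 CPM, with ranges of 88.2 to 128 and 88.7 to 281 CPM. Vegfa, the ligand, had 351 CPM against 520 CPM, and 7 of the 10 libraries lay below all others. For each of these 4 genes all 10 libraries lay below the median of the rest. For Tie1 all 10 did as well, but 9 of 10 with size factors from DESeq2 or in the deposited variance-stabilised values. Shares of all kept genes were computed only for all 10 libraries below or above all others, and not for the other counts given here and below.

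Pecam1 and Cdh5 lay on the opposite side. Pecam1 had a median of 96.7 CPM (63.6 to 168) in libraries 91 to 100 and 55.9 CPM (33.3 to 83.9) in the others, and 6 of the 10 lay above all 85. Cdh5 had medians of 49.2 CPM (34.3 to 84.1) and 36.0 CPM (19.6 to 56.1), with 3 of 10 above all others. Plvap lay closer in median, at 168 CPM (149 to 206) and 177 CPM (94.8 to 353). The other 3 genes lay lower in median with overlapping ranges, Tie1 at 31.0 against 39.6 CPM, Tek at 13.8 against 16.2 CPM and Angpt2 at 5.38 against 7.35 CPM.

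Ratios between capillary genes, in which the library scaling cancels, were taken for genes whose levels are given above. They restate those shifts and are no separate support for them. The ratio of Emcn to Pecam1 was 0.0981 to 0.387 in libraries 91 to 100 and 0.5 to 1.08 in the others, and that of Flt1 to Pecam1 was 0.332 to 1.40 against 1.49 to 3.43. In both ratios the sets did not overlap, and the share of other gene pairs for which this holds was not computed. Kdr to Pecam1 had medians of 1.14 and 2.90, with 9 of 10 libraries below all others. Kdr to Cdh5, which leaves Pecam1 out, had medians of 2.14 and 4.55, with 8 of 10 below all others. Cdh5 to Pecam1 shifted less, with medians of 0.519 and 0.624. Tie1 to Tek had medians of 2.32 and 2.49, with 0 of 10 below all others. The venous markers summed to a median of 61.7 CPM in libraries 91 to 100 and 21.0 CPM in the others, among them Ackr1, the chemokine receptor of venules, at 5.84 against 0.306 CPM. Markers of leukocytes, some of which carry Pecam1, were also higher there, as given above, and the part of either in these differences was not tested. In bulk RNA, fewer cells of a type and less RNA per cell cannot be told apart.

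The low Emcn values of libraries 91 to 100 depended in part on the scaling. With size factors from DESeq2, and in the deposited variance-stabilised values, all 10 again lay below all others. When library totals left out acinar and hormone genes, 1 of 10 did, although all 10 still lay below the median of the others, at medians of 30.2 and 64.1 CPM. Under that scaling the level of the median kept gene rose by 0.47 on the log2 scale. The rise was 0.391 in libraries 91 to 100 and 0.48 in the others, so this scaling itself lowers libraries 91 to 100 against the rest. Pecam1 remained higher in median (131 against 82.9 CPM) and Flt1 lower (101 against 212 CPM).

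Whether Vegfa varied with its receptors was tested by Spearman's rho of Vegfa with each of 15838 other kept genes, in two-sided permutation tests with Benjamini-Hochberg adjustment over all of them. An adjusted p under 0.05 was called. Over 95 libraries, 3 of the 9 capillary genes were called positive and 1 negative, against 15.4% and 16.0% of all genes, and the median rho was 0.182 over the 9 and 0.00749 over all genes. Kdr rose with Vegfa (rho = 0.368, permutation p = 0.0002, adjusted p = 0.00221; Pearson's r = 0.478, adjusted p = 3.94e-05). Leaving out libraries 97 and 100, the farthest from the median of Vegfa, gave r = 0.424. Flt1 did as well (rho = 0.294, permutation p = 0.00373, adjusted p = 0.0177; r = 0.624, adjusted p = 3.94e-05; r = 0.5 without the same libraries). Emcn had rho = 0.351 (permutation p = 0.00053, adjusted p = 0.00439; r = 0.599, adjusted p = 3.94e-05; r = 0.5 without the same libraries). Pecam1 fell as Vegfa rose (rho = -0.281, permutation p = 0.00635, adjusted p = 0.026; r = -0.687, adjusted p = 3.94e-05; r = -0.513 without them).

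None of these 4 relations was called once libraries 91 to 100 were left out. Over the remaining 85, Kdr had rho = 0.163 (adjusted p = 0.342), Emcn 0.112 (adjusted p = 0.539), Flt1 0.0344 (adjusted p = 0.869) and Pecam1 -0.0396 (adjusted p = 0.847). With values centred on runs of 10 numbers Pecam1 was called (-0.323, adjusted p = 0.013), while Kdr and Flt1 were not. In the 85 libraries 0 of the 9 capillary genes were called in either direction, against 4.19% of all genes positive and 3.47% negative, and 0 had an unadjusted permutation p under 0.05. The relation over all libraries thus rested on the run in which Vegfa, Kdr, Flt1 and Emcn were low together. Over 15 alternative settings the adjusted p ran from 3.18e-05 to 0.886 for Kdr and from 3.18e-05 to 0.984 for Flt1, and 11 of 15 called each in the same direction. For Pecam1 it ran from 3.94e-05 to 0.847, also with 11 of 15 called. Kdr and Flt1 lost their calls only where libraries 91 to 100 were left out or values were centred on runs. Several of the other settings hardly change ranks, so these tallies do not measure robustness.

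**Figure D2:**
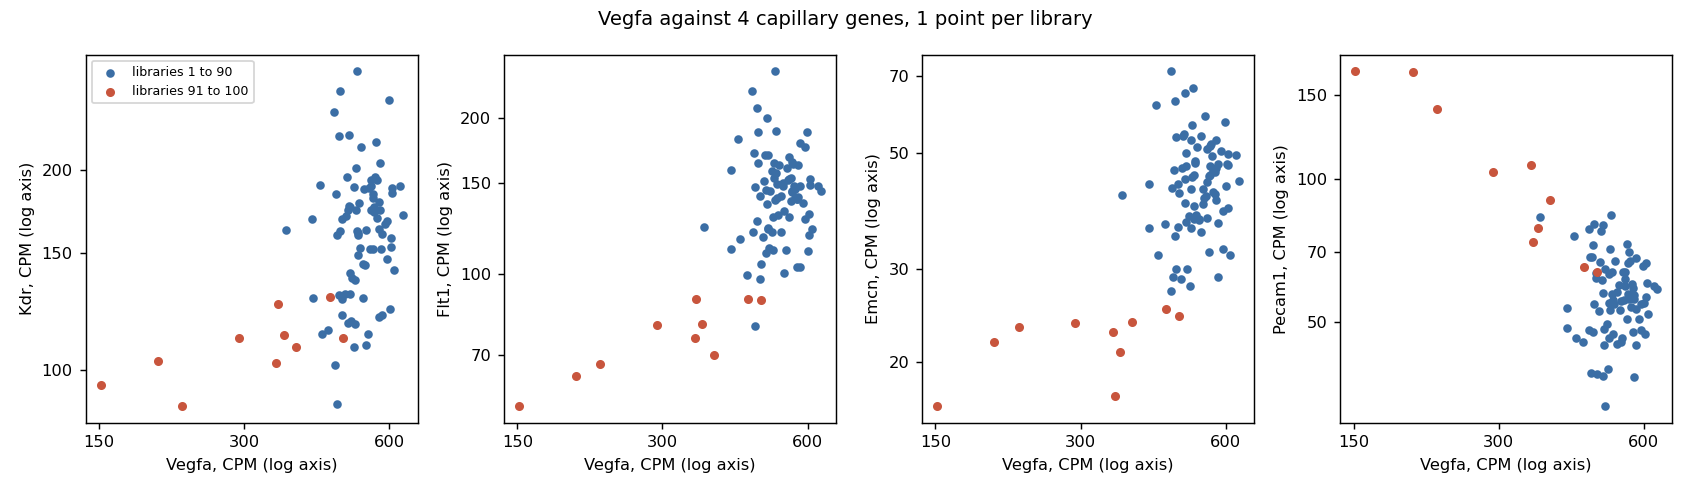
Vegfa (CPM, log axis) against Kdr, Flt1, Emcn and Pecam1 (CPM, log axes), with 1 point per library and libraries 91 to 100 in red. The red points lie at low Vegfa with low Kdr, Flt1 and Emcn and high Pecam1, and the blue points show little slope, with rho between -0.0396 and 0.163.

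The other capillary genes were not called with Vegfa over all libraries. Tie1 had rho = 0.233 (permutation p = 0.0231, adjusted p = 0.0665; r = 0.186, adjusted p = 0.11) and Tek 0.182 (permutation p = 0.0786, adjusted p = 0.165; r = 0.101, adjusted p = 0.419). Cdh5 had rho = -0.215 (permutation p = 0.0371, adjusted p = 0.0945), while its linear correlation was called (r = -0.465, adjusted p = 7.22e-05; r = -0.300 without libraries 97 and 100). Cdh5 was called negative in 6 of 15 alternatives, among them values centred on runs of 10 numbers (-0.34, adjusted p = 0.00823), over an adjusted p of 7.22e-05 to 0.9. Angpt2 had rho = 0.104 (adjusted p = 0.456) and Plvap 0.0431 (adjusted p = 0.778). Among all genes ranked by rho with Vegfa from the highest, Kdr stood at rank 762, Emcn at 932, Flt1 at 1646 and Pecam1 at 13886 of 15838.

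**Figure D3:**
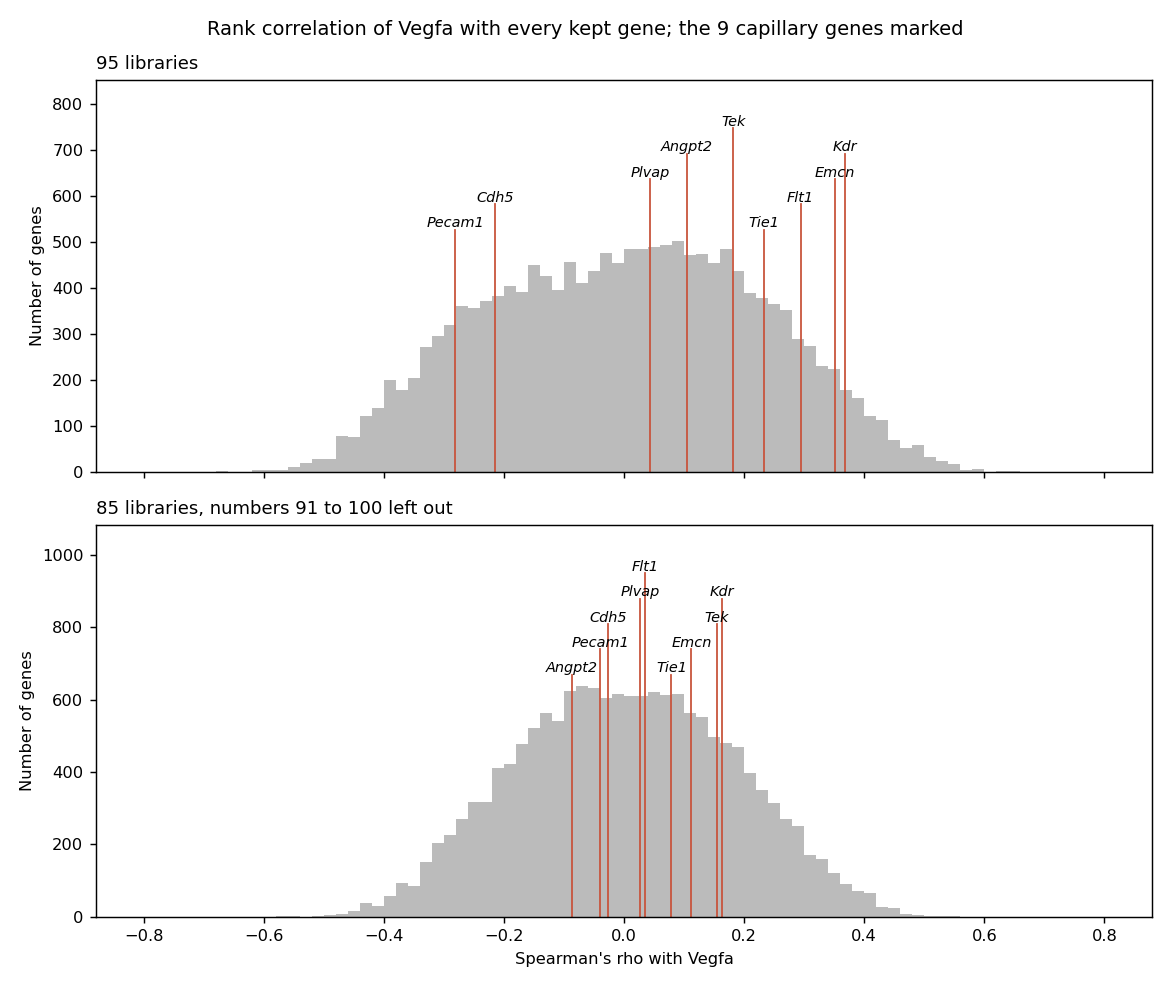
Number of kept genes by Spearman's rho with Vegfa, over 95 libraries and over the 85 without numbers 91 to 100, with the 9 capillary genes marked by red lines. In the upper panel they spread from -0.281 for Pecam1 to 0.368 for Kdr, and in the lower panel all 9 lie between -0.0872 and 0.163.

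Lists of the wider pathway, which also hold some of the members, were read with and without libraries 91 to 100. Of all kept genes, 15.4% were called positive with Vegfa and 16.0% negative, and 4.19% and 3.47% up to number 90. Of the 3 other VEGF family ligands kept, 2 were called positive with Vegfa and 0 negative. Pgf, the placental growth factor, which binds Flt1, had rho = 0.553 over all libraries (adjusted p = 0.000351) and 0.419 up to number 90 (adjusted p = 0.00809), at a median of 14.3 CPM. Vegfb had rho = 0.381 (adjusted p = 0.00214) and 0.208 up to number 90 (adjusted p = 0.212), and Vegfc, a ligand of lymphatic vessels, -0.0811 (adjusted p = 0.569). All 5 VEGF receptors and coreceptors, among them Kdr and Flt1 as given above, were called, 4 positive and 1 negative. Up to number 90, 0 of 5 were. Flt4, the receptor of Vegfc, was highest at rho = 0.419 (adjusted p = 0.00066), and Nrp2, a coreceptor, lowest at -0.259 (adjusted p = 0.0400). In the angiopoietin and Tie list, which holds the members Angpt2, Tek and Tie1, 1 of 5 was called. It was Angpt1, the agonist of Tek, at rho = -0.356 (adjusted p = 0.00432) and a median of 1.59 CPM. Ptprb, the endothelial phosphatase that acts on Tek and the most abundant of that list at 49.9 CPM, had rho = 0.133 (adjusted p = 0.32).

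Endothelial genes of other kinds were called in part, and their counts stand beside 15.4% of all kept genes called positive and 16.0% negative. Most of the lists are short, and several counts lie near those shares. Of 8 tip cell and Notch genes, 2 were called positive, Esm1, a secreted proteoglycan of sprouting endothelium, at rho = 0.412 (adjusted p = 0.000788; median 74.7 CPM) and Dll4, the Notch ligand of tip cells, at 0.324 (adjusted p = 0.00912). Aplnr, the apelin receptor, was lowest in that list at -0.243 (adjusted p = 0.055). Venous genes lay on the other side, with 4 of 5 called negative, from Selp, the adhesion molecule P-selectin, at -0.426 (adjusted p = 0.000788) to Nr2f2 at -0.318 (adjusted p = 0.0107). Ephb4, the most abundant venous gene at 10.5 CPM, had rho = -0.243 (adjusted p = 0.0545). Of 14 junction and surface genes 3 were called negative, and S1pr1, a lipid receptor also found on lymphocytes, was lowest at -0.454 (adjusted p = 0.000351). Podxl, the highest in rho and level, had 0.242 (adjusted p = 0.0542) at a median of 91.5 CPM. Among 10 endothelial transcription factors only Ets1, which lymphocytes also express, was called (rho = -0.287, adjusted p = 0.0213). Of the 9 mural cell genes 3 were called negative, with the intermediate filament gene Des lowest at -0.33 (adjusted p = 0.00647). Arterial genes were called in 0 of 3 kept. In the lymphatic list 2 of 5 were called, Flt4, already counted among the receptors, and Prox1, both positive. Up to number 90, 0 genes of any list in this paragraph were called, against 4.19% of all genes positive and 3.47% negative.

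Hypoxia genes, which like Vegfa are known targets of low oxygen signalling, were called in both directions, 2 of 14 kept positive and 3 negative, with a median rho of -0.0592. These counts lie near the 15.4% and 16.0% of all genes. Egln1, an oxygen-sensing hydroxylase, was highest at 0.26 (adjusted p = 0.0382) and Pfkfb3, a regulator of glycolysis, lowest at -0.524 (adjusted p = 0.000351). Pfkfb3 was called up to number 90 as well (rho = -0.393, adjusted p = 0.0127). Among 9 beta cell genes 3 were called positive. Nkx6-1, a transcription factor of beta cells, had rho = 0.559 (adjusted p = 0.000351) and 0.456 up to number 90 (adjusted p = 0.0044). Pdx1, a further such factor, had 0.454 (adjusted p = 0.000351) and 0.322 (adjusted p = 0.0417), and G6pc2 was called over all libraries only. Ins2, the most abundant of the list, had 0.181 (adjusted p = 0.166), and Ins1 the lowest at -0.00283. Leukocyte markers were called negative in 7 of 10 macrophage genes and 7 of 10 lymphocyte genes, and in 0 of either list up to number 90. C1qa was lowest among macrophage genes at -0.364 (adjusted p = 0.00286) and Cd4 among lymphocyte genes at -0.379 (adjusted p = 0.00206). Of 16 acinar genes 1 was called, Amy2b at -0.396 (adjusted p = 0.00123). Of the 8 hormone genes Pyy was called (0.383, adjusted p = 0.0019), and of 5 erythroid genes 0 were.

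Other genes named from these lists for their level or rho follow, of which Ets1, Prox1, C1qa and Cd79a were called with Vegfa. Aldoa, a glycolytic enzyme, was the most abundant hypoxia gene at a median of 324 CPM (rho = 0.216), and Rgs5 the most abundant pericyte and smooth muscle gene at 117 CPM (-0.0602). Cspg4 was highest in rho among mural genes (0.0242), and Gata2 among endothelial transcription factors (0.217), where Ets1 was the most abundant at 29.4 CPM. In the arterial list Efnb2, the most abundant at 15.2 CPM, had rho = 0.193 and Sema3g -0.172. Prox1, a transcription factor in the lymphatic list, had a median of 84.0 CPM (rho = 0.386, adjusted p = 0.00182), against 16.4 CPM for Flt4, the next of that list in level. Which cells its transcripts came from was not tested. Ccl21a, at 0 in 35 libraries, had rho = -0.205. C1qa was the most abundant macrophage gene at 24.8 CPM, and Adgre1 was highest in rho at -0.152. Among lymphocyte genes Cd79a was the most abundant at 8.61 CPM (rho = -0.32, adjusted p = 0.00912), and Cd3e was highest in rho at -0.221. Ctrb1 was the most abundant acinar gene at 8750 CPM (-0.183), with Ptf1a highest in rho at -0.0953. The haemoglobin genes Hba-a2 (median 23.5 CPM, rho = -0.135) and Hba-a1 (-0.192) are near-identical, so the division of their reads is uncertain, and Alas2 had -0.0395.

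The balance of these calls differed between scalings. DESeq2 size factors gave 2191 genes positive with Vegfa and 2600 negative. With totals that left out acinar and hormone genes, 10170 genes were called positive with Vegfa and 952 negative, against 2434 and 2536 here. Kdr (rho = 0.663), Emcn (0.624), Flt1 (0.618), Tie1 (0.56) and Tek (0.531) were called positive under that scaling, and Pecam1 (0.16) and Cdh5 (0.109) changed sign and were not called. Libraries with nearby numbers were alike, with rho of 0.495 for Vegfa and 0.763 for Kdr between each library and the next. Permuting libraries 1 by 1 ignores this likeness and gives p-values that are too small, and they measure only the spread between these libraries.

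The genes whose levels followed Vegfa most closely over 95 libraries were Fbxl16 (rho = 0.644), Insm1 (0.626), a transcription factor of endocrine cells, Phf2 (0.621), Angel1 (0.593) and Ubxn10 (0.589). Cxxc4, Mras, Sptbn4, Ift172 and Brpf3 followed at 0.586 to 0.571. Those most opposed were Ptgr1 (-0.664), Rbbp8 (-0.614), Ifi205 (-0.611), Cdt1 (-0.605), a DNA replication licensing factor, and Gm42427 (-0.605). Pdlim1, Slc38a1, Dlgap5 and Psmb1 were also among the most opposed, at -0.582 to -0.572.

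Angpt2 was tested in the same way as the other secreted ligand. Over all libraries 3 of the 9 other members were called positive and 0 negative, against 17.3% and 18.0% of all genes. Its receptor Tek was not among them (rho = 0.12, permutation p = 0.245, adjusted p = 0.376; r = 0.128, adjusted p = 0.328; r = 0.167 without libraries 86 and 88, the farthest from the median of Angpt2). Tie1 rose with Angpt2 (rho = 0.381, permutation p = 0.00021, adjusted p = 0.00165; r = 0.345, adjusted p = 0.00393; r = 0.335 without those libraries). Kdr had rho = 0.437 (permutation p = 1e-05, the smallest that 100000 resamples can give, adjusted p = 0.000184; r = 0.462, adjusted p = 0.000187; r = 0.39 without them). Emcn had rho = 0.436 (permutation p = 5e-05, adjusted p = 0.000569; r = 0.43, adjusted p = 0.00048; r = 0.404 without them).

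These 3 were also called without libraries 91 to 100, where Kdr had rho = 0.325 (adjusted p = 0.0115), Emcn 0.32 (adjusted p = 0.0138) and Tie1 0.302 (adjusted p = 0.0203). Pecam1, at 0.107 over all libraries, was then called too (0.329, adjusted p = 0.00906). With the beta cell score removed, Kdr (0.255, adjusted p = 0.0531) and Emcn (0.219, adjusted p = 0.101) were not called with Angpt2. With values centred on runs bounded from other genes, Emcn (0.119, adjusted p = 0.46) and Tie1 (0.203, adjusted p = 0.179) were not. In the 85 libraries up to number 90, 15.3% of all genes were called positive and 16.4% negative. The difference between the relations of the 2 ligands was not tested. Among libraries numbered 50 or lower, 0 genes were called with Angpt2, with Tie1 at 0.146, Kdr at 0.217 and Emcn at 0.179. There, 538 genes were positive and 708 negative at an unadjusted permutation p under 0.05. Over the 15 alternatives the adjusted p ran from 0.000109 to 0.824 for Tie1 and from 0.00149 to 0.705 for Tek, with 13 and 2 called. It ran from 0.000109 to 0.722 for Kdr and from 0.000109 to 0.777 for Emcn, with 13 and 12 called.

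The genes closest to Angpt2 were Dusp14 (rho = 0.744), Ntrk2 (0.744), Rtn4 (0.691), Sgpp1 (0.676), Gdpd1 (0.675), Tspan13, Atp1b1, Iapp (0.654), the islet amyloid polypeptide gene, Arl2bp and Scarb2 (0.649). Kdr stood at rank 526 and Emcn at 533 among all genes. Of the 9 beta cell genes 5 were called positive with Angpt2, against 17.3% of all genes, among them Ins2 (0.562) and Ins1 (0.54), both with an adjusted p of 0.000184. Nkx6-1 (-0.0263), Pdx1 (-0.0294) and G6pc2 (-0.119) had negative rho and were not called, and neither was Mafa (0.223). Of 9 mural cell genes 4 were called positive, and 6 up to number 90, where 15.3% of all genes were. The highest mural rho over all libraries was that of Cspg4, a pericyte proteoglycan, at 0.45 (adjusted p = 0.000292). Ptprb had rho = 0.518 (adjusted p = 0.000184). The relations of Ins1, Ins2, Nkx6-1, Pdx1, G6pc2, Mafa, Cspg4 and Ptprb with Angpt2 were picked out after their values were seen. Which cells the Angpt2 transcripts came from was not tested.

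Among themselves the 8 capillary genes other than Angpt2 rose and fell together, which is given as a description since they were chosen as a set. With Angpt2 included, the 36 pairs of the 9 had rho from 0.007 to 0.85 with a median of 0.514. The 28 pairs of the 8 receptor, surface and junction genes had rho from 0.252 to 0.85 with a median of 0.589, and the median over all pairs of kept genes was -0.003. Kdr was closest to Flt1 (0.85) and Emcn (0.846), which ranked first and next among all genes by rho with Kdr. The nearest genes outside the members were Nrp1, a VEGF coreceptor (0.843), Plpp3 (0.841), Cdk14 (0.811), Exoc3l2 (0.805), Ptprb (0.804) and Flt4 (0.802), followed by Dlc1, Plpp1, Nid2 and Cd300lg (0.796 to 0.784). Plvap was closest to Cdh5 (0.786), and Pecam1 to Cdh5 (0.801).

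Leaving out libraries 91 to 100 raised rho in every pair that joined Pecam1 or Cdh5 to one of the other 7 capillary genes. Kdr with Pecam1 moved from 0.407 to 0.825, Flt1 with Pecam1 from 0.262 to 0.684, Emcn with Pecam1 from 0.252 to 0.674 and Cdh5 with Emcn from 0.276 to 0.599. Over the 85 libraries the 28 pairs ran from 0.466 to 0.87 with a median of 0.707, and 27 of 28 were above 0.5, against 2.76% of all pairs of kept genes. Angpt2 reached 0.329 at most with these 8, in its pair with Pecam1, and 0.0762 with its own receptor Tek. These points share library, scaling and neighbouring numbers.

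**Figure D4:**
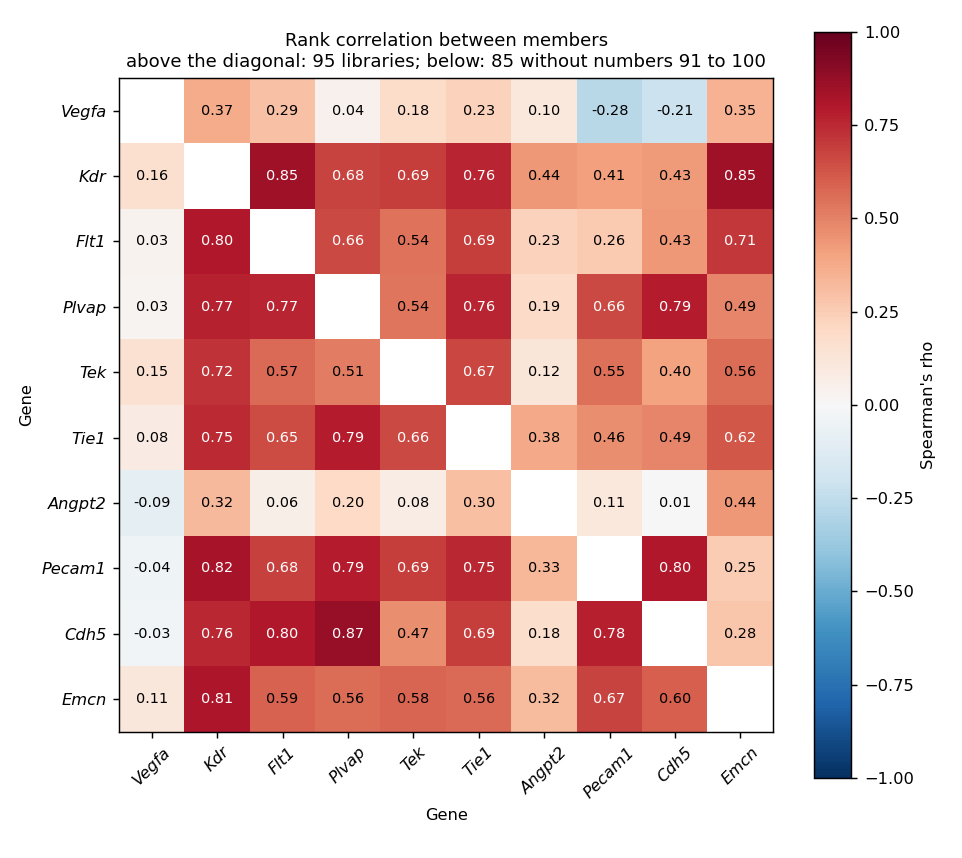
Spearman's rho for each pair of the 10 genes, with all 95 libraries above the diagonal and the 85 without numbers 91 to 100 below it, red for positive and blue for negative. Vegfa is pale in its row and column, Angpt2 pale to moderate, and the other 8 genes are red with each other, most deeply below the diagonal.

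Levels of the capillary genes differed between stretches of library numbers. The numbers were read in 12 stretches whose bounds came from earlier results of these data on other genes, so the differences are a description, with no test. Plvap had 111 to 159 CPM in libraries 1 to 8, 201 to 283 CPM in 9 to 16 and 103 to 166 CPM in 17 to 24. It was high again in libraries 40 to 48, at 217 to 353 CPM, and low in 49 to 58, at 94.8 to 155 CPM. These 2 high stretches did not overlap with these 3 low ones, and other stretches lay between, such as 25 to 32 at 166 to 209 CPM, 34 to 39 at 159 to 184 CPM and 66 to 75 at 166 to 230 CPM. How many of all kept genes separate the same stretches was not computed. Kdr followed the same order, with 102 to 137 CPM in libraries 1 to 8, 184 to 225 CPM in 9 to 16, 109 to 149 CPM in 17 to 24, 174 to 281 CPM in 40 to 48 and 88.7 to 166 CPM in 49 to 58. Vegfa did not, with medians of 490, 489, 540, 548 and 539 CPM in the same 5 stretches.

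Single genes departed from this common order in some stretches. Tek was highest in libraries 76 to 85, at 18.3 to 31.7 CPM with a median of 23.5 CPM, and in 59 to 65, at 21.2 to 23.0 CPM, where Plvap was near its overall median. In libraries 66 to 75 Tek fell back to 11.5 to 15.3 CPM while Plvap and Flt1 had medians of 197 and 156 CPM. The stretch medians of Angpt2 lay at 8.83 CPM in libraries 9 to 16, 7.28 CPM in 40 to 48 and 6.41 CPM in 59 to 65. Angpt2 was highest in libraries 86 to 90, at 9.51 CPM in library 90, 12.8 in 89, 13.8 in 88 and 15.1 in 86, and lowest in 66 to 75, at 3.79 to 5.75 CPM. Kdr was also high in libraries 86 to 90, at 162 CPM in library 90, 220 in 89, 254 in 88 and 263 in 86. Emcn had its highest values in libraries 46 to 48, at 66.3, 64.8 and 71.4 CPM. What distinguishes the stretches is not given in the labels, and strain, sex, litter and technical order cannot be told apart.

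**Figure D5:**
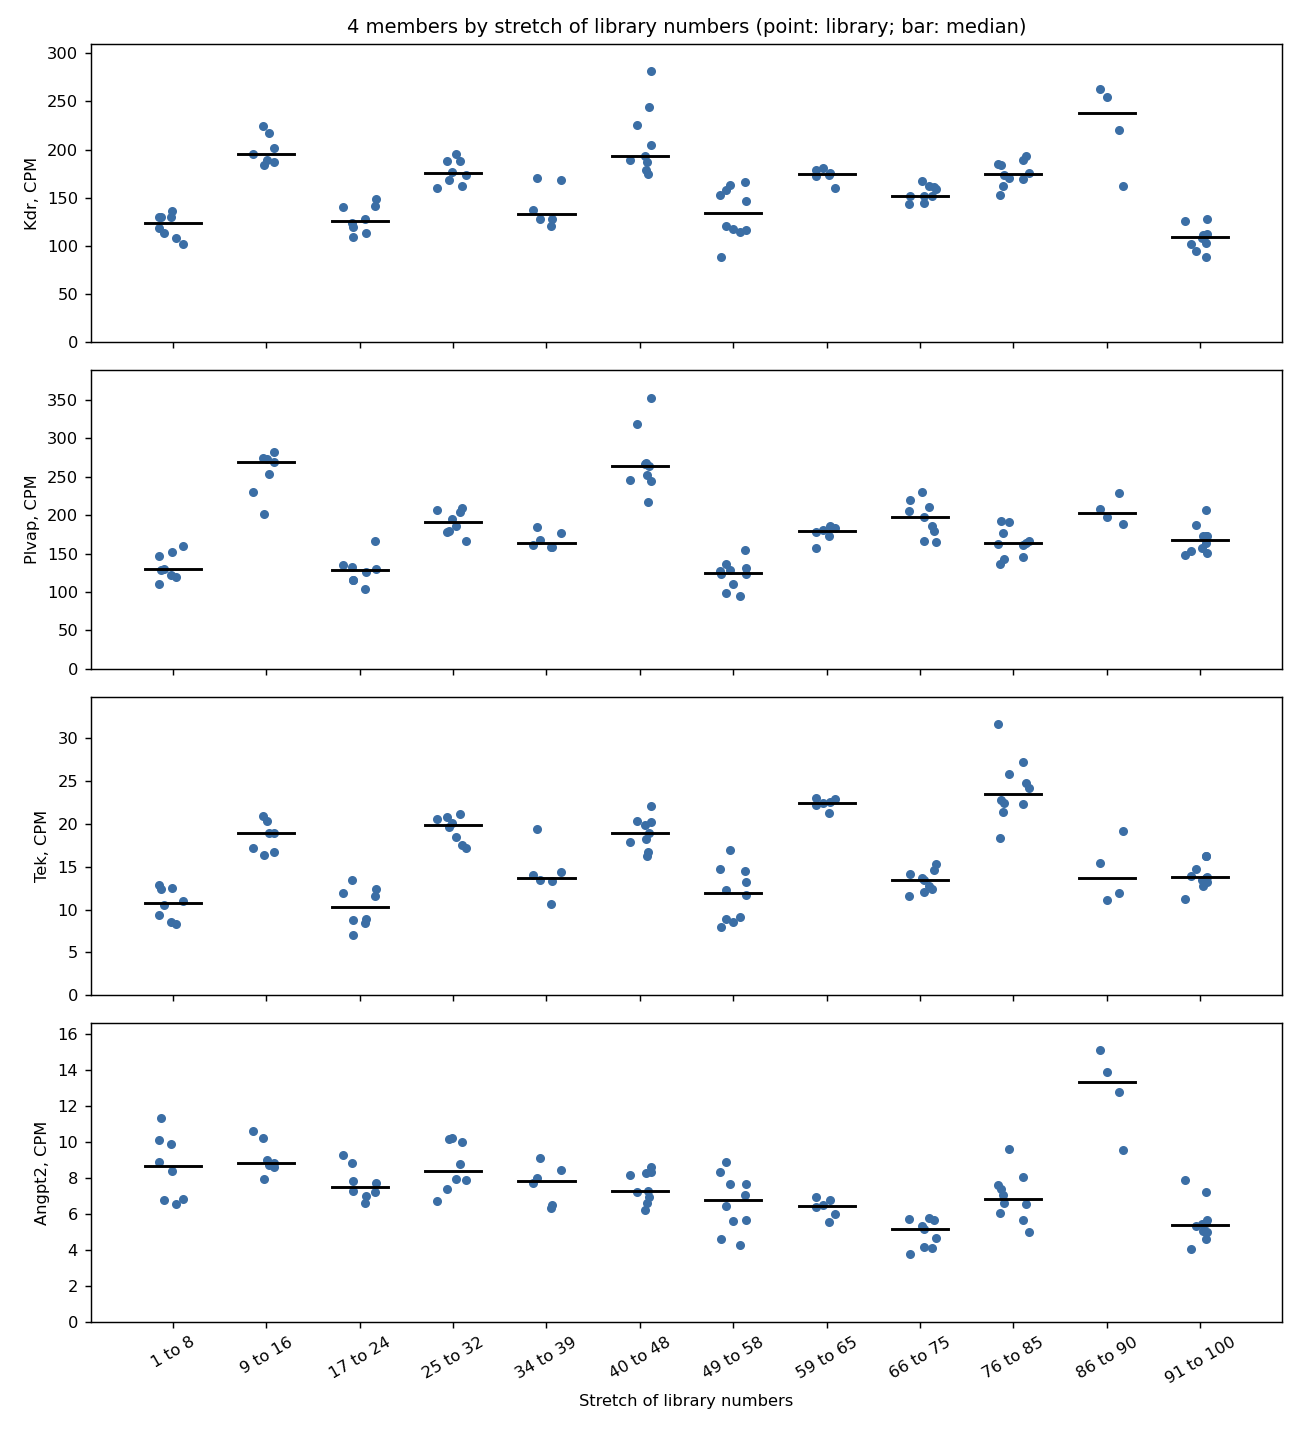
Levels of Kdr, Plvap, Tek and Angpt2 (CPM, axes from 0) in 12 stretches of library numbers, with 1 point per library and a bar at the median. Plvap is above 200 CPM throughout libraries 9 to 16 and 40 to 48, Tek is highest in 59 to 65 and 76 to 85, and Angpt2 in 86 to 90.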

How the data were processed

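The data are estimated counts per gene deposited by the authors for 95 libraries, not normalized, with 67.7% of values whole to within 1e-06. A deposited table of variance-stabilised values, close to log2, served as an alternative. The deposited annotation gave symbols and positions. Per the submitters' processing notes, GRCm38 and DESeq2 were used; the aligner, the counting tool and its use of strand are not given in the sources used here. Per the labels' protocols, RNA was captured by its poly(A) tail.

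Libraries were scaled with TMM in edgeR 4.0.16 (factors 0.459 to 1.29), with a prior count of 2 for log2 CPM. A gene was kept when 10 or more libraries reached a CPM of 1, which left 15839. Coefficients of variation are square roots of edgeR's gene-wise dispersion on rounded counts, with an intercept only. CPM per kb used exon lengths of GENCODE M21. Correlations were tested by 100000 two-sided permutations with Benjamini-Hochberg adjustment over 15838 genes for each ligand. A gene with an empty stretch in its values and 6 or more libraries on either side would count as clustered, which applied to 0 of the 10 members. In simulated data, 200 of 200 genes made to follow Vegfa were called and 8 of 15638 others. In the same data 200 of 200 genes with a coefficient of 80% were found above 50%, against 0 of 15438 at 20%. The simulated libraries were drawn independently, unlike the real ones, in which neighbouring numbers are alike. These counts therefore give no rate of false calls for the real data.

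The members and lists were chosen with earlier results of these data known. Genes named are the members, the 10 highest and 10 lowest by rho with Vegfa, the 10 highest with Angpt2 and with Kdr, and in each list the most abundant and the highest and lowest by rho with Vegfa. Others were named after their values were seen. A gene that meets the rule is not reported here. Alternatives were DESeq2 1.42.0 size factors, no filter, a prior count of 0.5, totals without acinar and hormone genes, subsets of libraries, values centred by run, removal of acinar, macrophage or beta cell scores, and Pearson's r.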

Additional observations from a re-analysis of the deposited data

How the results depend on the processing

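Relations of Vegfa and Angpt2 with the other members were recomputed under 15 alternatives each. Calls depended most on which libraries entered and on the scaling. A prior count of 0.5, dropping the low-count filter, DESeq2 size factors and the deposited variance-stabilised values turned no direction and changed no call. No paired analysis was possible because the labels give no groups and no replicate numbers. Where a value changed, the cause was not tested. What depth limits was not tested.

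With totals that left out acinar and hormone genes, 10170 genes were positive and 952 negative with Vegfa, and 6004 and 776 with Angpt2, of which Tek passed (rho = 0.365). Vegfa with Pecam1 (0.16) and Cdh5 (0.109) changed sign. Median levels of all 10 members rose under this scaling, that of Vegfa to 724 CPM. Among libraries numbered 50 or lower, 331 genes were positive and 343 negative with Vegfa, and 0 and 0 with Angpt2 in the permutation test, where 538 and 708 had an unadjusted p under 0.05. Kdr fell to 0.0513 with Vegfa, and Flt1 (-0.134), Plvap (-0.0662), Tek (-0.0709), Tie1 (-0.173) and Angpt2 (-0.216) changed sign, while Angpt2 with Tie1 was 0.146. Above number 50, 3663 genes were positive and 3668 negative with Vegfa, where Tie1 (0.604) and Cdh5 (-0.336) gained calls, 1422 were positive and 1154 negative with Angpt2, and Angpt2 with Cdh5 was -0.183.

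Without libraries numbered above 90, 664 genes were positive and 550 negative with Vegfa, Kdr was at 0.163, Flt1 at 0.0344 and Angpt2 at -0.0872. The coefficient of variation of Vegfa fell to 10.2% and that of Pecam1 to 18.9%. With each value centred on its run of 10 numbers, 1401 genes were positive and 1903 negative with Vegfa, Kdr (0.117), Flt1 (0.00361) and Emcn (0.0615) no longer passed, Pecam1 did (-0.323) and Cdh5 gained a call (-0.34). Plvap (-0.155), Tek (-0.0254) and Tie1 (-0.109) then changed sign with Vegfa, Angpt2 had 1163 positive and 1157 negative genes, and its relation with Tek passed (0.354). With runs bounded from other genes, 1206 genes were positive and 1604 negative with Vegfa, and 879 and 843 with Angpt2. Kdr (0.256), Flt1 (0.111), Emcn (0.042) and Pecam1 (-0.25) with Vegfa, and Tie1 (0.203) and Emcn (0.119) with Angpt2, did not pass, and Cdh5 with Vegfa did (-0.311). With the beta cell score removed Kdr (0.255) and Emcn (0.219) lost their calls with Angpt2.

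Other sign changes with Vegfa were Plvap with the acinar score removed (-0.0221), the beta cell score removed (-0.0561) or Pearson's r (-0.0079), Tek with the macrophage score removed (-0.0247), and Angpt2 with the macrophage (-0.127) or beta cell score removed (-0.228). With Angpt2 they were Cdh5 without the 10 lowest totals (-0.00379), with the acinar score removed (-0.0112) or by Pearson's r (-0.00256), and Pecam1 by Pearson's r (-0.00634). By Pearson's r, 4358 genes were positive and 4547 negative with Vegfa.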
